A study of Homo sapiens with 6 samples.

Results

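Eph receptors are the largest family of receptor tyrosine kinases, and their ligands, the ephrins, are held on the surface of neighbouring cells. Ephrin-A ligands carry a lipid (GPI) anchor and bind mainly EphA receptors, whereas ephrin-B ligands span the membrane and bind mainly EphB receptors. Because both partners sit in membranes, contact between cells sends a forward signal through the receptor and a reverse signal through the ephrin, and the pathway is known for sorting cells, setting tissue boundaries and controlling adhesion and repulsion in epithelia. The genes described here are 6 receptors (EPHA2, EPHA4, EPHB2, EPHB3, EPHB4 and EPHB6) and 4 ligands (EFNA1, EFNA5, EFNB1 and EFNB2). They were chosen by symbol, with earlier results of these data known, and matched to the Entrez identifiers of the count table. All 10 of the 10 symbols were found among the 12703 genes of the table.

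The RNA came from PC3 cells, an established human prostate cancer line. The 3 control libraries are from PC3 lines carrying negative-control (Lenti-ORF control) lentivirus, and the 3 GCNT1 OE libraries are from PC3 lines stably transduced to overexpress GCNT1, a glycosyltransferase that builds branched (core 2) O-glycans on proteins. All 6 libraries therefore share the parental line and a lentiviral transduction. The promoter of the vector, and whether each line is 1 clone or a pool of transduced cells, are not given in the sources used here, so the p values measure only the spread between these libraries.

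The libraries held between 11392213 and 13825704 counts. Levels are given as CPM (counts scaled to a common library size) scaled with edgeR's TMM factors, and a count of 3, used as the detection floor, corresponds to 0.213 to 0.259 CPM, which covers counting error only. Calls use the study's own limits, 0.05 for the adjusted p and 0.58 for the size of the log2 fold change, and every adjusted p below is the Benjamini-Hochberg value of the edgeR quasi-likelihood test over all 12703 genes unless another tool is named. GCNT1 itself had counts of 9, 13 and 8 (controls) and of 13, 16 and 35 in the libraries labelled GCNT1 OE (log2 fold change 0.98, SE 0.37, edgeR adjusted p = 0.0362). Without GCNT1 OE replicate 3 the log2 fold change was 0.49 (edgeR adjusted p = 0.269). It was 0.91 without control replicate 1 and 0.88 without control replicate 3 (edgeR adjusted p = 0.0920 and 0.0944), and with DESeq2 on all libraries the adjusted p was 0.0821. The study also examined its GCNT1 overexpressing PC3 cells by real-time PCR, ELISA and immunocytochemistry, which are not part of these counts. The epithelial genes KRT8, KRT18, KRT19, EPCAM and CDH1 and the mesenchymal gene VIM were all measured. KRT8 had 222 ± 7.77 and 202 ± 19.8 CPM (SD, n = 3) in control and GCNT1 OE libraries, and KRT18, EPCAM and VIM had log2 fold changes of -0.18, 0.09 and 0.30. CDH1 (E-cadherin) was called lower, from 3.59 ± 0.796 to 1.10 ± 0.168 CPM (SD, n = 3; log2 fold change -1.71, edgeR adjusted p = 4.74e-05), as was KRT19 (log2 fold change -0.68, edgeR adjusted p = 4.27e-07). Of the prostate luminal markers, 5 of 7, KLK3 (PSA) among them, had no row in the counts used here. Of the markers of other cell types, 1 of 5 for fibroblasts, 1 of 4 for endothelium, 1 of 4 for immune cells and 1 of 4 for neuroendocrine cells were measured. The single endothelial marker measured, PECAM1, had between 1.43 and 1.95 CPM in controls and between 3.93 and 5.10 CPM in GCNT1 OE libraries, while the defining endothelial genes VWF, CDH5 and CLDN5 had no row. Between control and GCNT1 OE libraries the fibroblast marker measured (COL1A1) had 13.7 to 15.7 and 8.23 to 8.86 CPM, the immune marker (CD68) 83.4 to 94.4 and 80.0 to 89.5 CPM, and the neuroendocrine marker (SYP) 2.70 to 3.47 and 1.12 to 1.89 CPM. The 2 prostate luminal markers measured summed to between 7.53 and 8.98 CPM in controls and between 3.97 and 4.61 CPM with overexpression. The part of these markers in the results below was not tested. In bulk RNA of this kind, fewer cells with a transcript and less transcript per cell cannot be told apart.

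Expression of 4 of the 6 receptors was lower in GCNT1 overexpressing cells, and none of the 4 ligands was called. EPHA4 and EPHB6 fell to or near the detection floor, EPHB3 fell 4.67-fold, EPHB2 fell by 0.68 on the log2 scale, and EPHB4 and EPHA2 stayed within the fold change threshold. The calls were thus 4 of 10 members, 0 higher and 4 lower, where 19.3% of all genes were called, 8.28% higher and 11.1% lower. The balance over all genes depended on the scaling, since TMM gave 1052 higher calls against 1405 lower ones and scaling by library size alone gave 1283 against 1230. The 4 member calls were lower under both scalings. No gene of the table had less than 1.01 CPM in its third-highest library. EPHA4 and EPHB6 reached this level only in controls, so with so little in GCNT1 OE libraries they could be found only as lower. On the adjusted p alone, 8 of the 10 members passed, 1 higher and 7 lower, where 57.6% of all genes did so, 28.3% higher and 29.3% lower. The values of the 2 groups did not overlap in 7 of the 10 members, against 62.5% of all genes, so that a difference as such is common in this comparison. The median log2 fold change was -0.39 over the members and 0.00 over all genes. Because the members were chosen with earlier results of these data known, these comparisons with all genes are description and not a test.

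**Figure D1:**
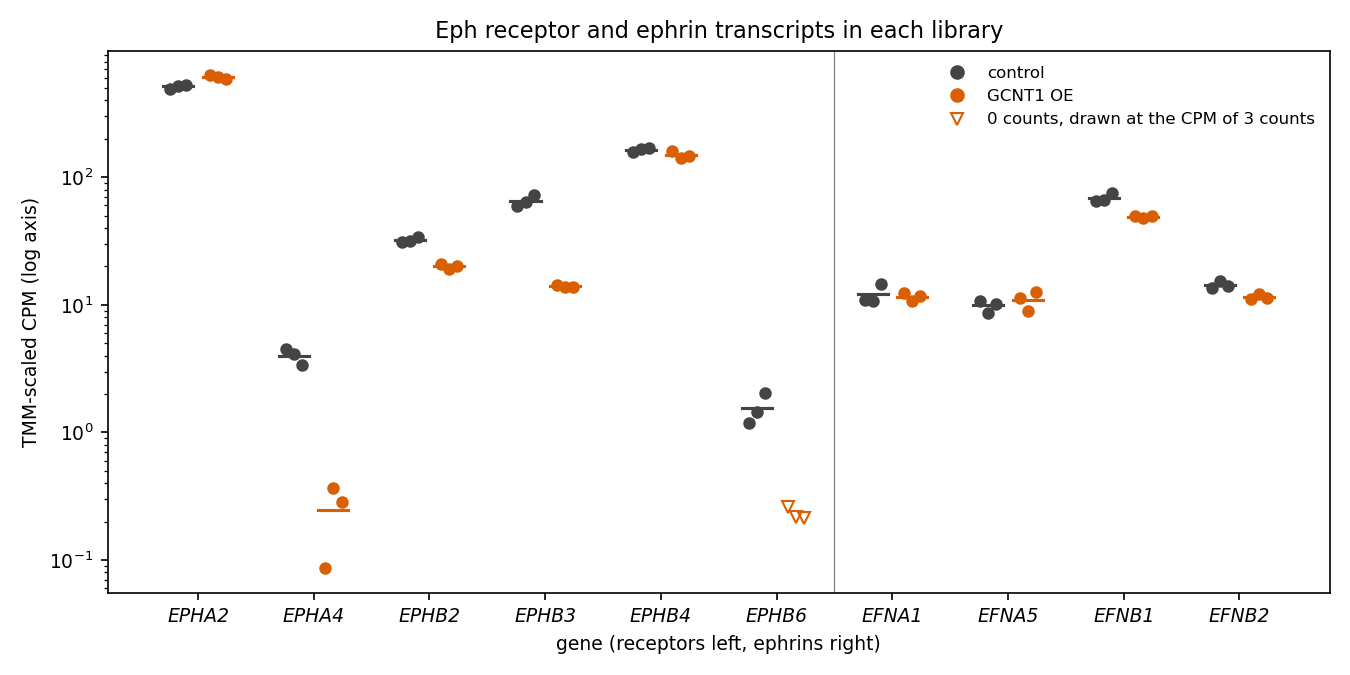
TMM-scaled CPM (log axis) of the 10 members in each of the 3 control and 3 GCNT1 OE libraries, with short lines at the group means and open triangles for libraries with 0 counts, drawn at the CPM of 3 counts. EPHB3 sits between 59.9 and 72.4 CPM in controls and between 13.7 and 14.4 CPM with GCNT1 overexpression, whereas the points of EPHB4, EFNA1 and EFNA5 overlap between the groups.

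EPHA2, the main EphA receptor of many epithelial cancers, was the most abundant member (chromosome 1 of hg38, 16124337 to 16156069). Its counts were 6198, 6493 and 6264 in the control libraries and 7256, 8320 and 8337 with GCNT1 overexpression. After scaling, all 3 GCNT1 OE libraries, at 627, 606 and 591 CPM, were above the 3 controls, at 492, 521 and 530 CPM. The mean rose from 515 ± 19.6 to 608 ± 18.1 CPM (SD, n = 3), a log2 fold change of 0.24 (SE 0.05, edgeR adjusted p = 0.000515), which is under the fold change threshold. This was the single member with a higher level past the adjusted p.

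EPHA4, a receptor unusual in binding both ephrin classes, had counts of 57, 51 and 40 in controls and of only 1, 5 and 4 in GCNT1 OE libraries (chromosome 2, 221418027 to 221574202). No overexpressing library came near a control library. The level fell from 4.00 ± 0.579 to 0.245 ± 0.143 CPM (SD, n = 3), a log2 fold change of -3.93 (SE 0.32, edgeR adjusted p = 3.67e-07), or 15.3-fold lower. EPHA4 was therefore a low transcript already in the controls, and the GCNT1 OE mean lies close to the CPM of 3 counts. Only its control libraries reached the 1.01 CPM given above.

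EPHB6, which lacks the kinase activity of the other EphB receptors, had 15, 18 and 24 counts in controls but 0 in each of the 3 GCNT1 OE libraries (chromosome 7, 142855076 to 142871093). Over all genes, 60, 54 and 54 were at 0 counts in the GCNT1 OE libraries, and 7, 9 and 6 in the controls. The control level of EPHB6, 1.56 ± 0.430 CPM (SD, n = 3), was the lowest of the members. Set against the floor of 3 counts per library, expression was at least 6.76-fold lower with GCNT1 overexpression (edgeR adjusted p = 1.44e-05). At this depth the transcript was not detectable in those libraries, which does not show that it was absent. EPHB6 reached the 1.01 CPM given above through its controls alone, so its p value comes from a gene that could be found only as lower.

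EPHB3, which together with EPHB2 is a known target of Wnt signalling in intestinal epithelium, had the smallest p value of the members (chromosome 3, 184561785 to 184582408). The control libraries held 754, 794 and 856 counts of it and the GCNT1 OE libraries 167, 190 and 194. Mean expression fell from 65.4 ± 6.40 to 14.0 ± 0.371 CPM (SD, n = 3), a log2 fold change of -2.22 (SE 0.09, edgeR adjusted p = 2.19e-10), or 4.67-fold lower. The 3 overexpressing libraries, at 14.4, 13.8 and 13.7 CPM, lay close together and far below the lowest control of 59.9 CPM.

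EPHB2, the receptor that with EPHB3 positions cells along the intestinal crypt, fell less (chromosome 1, 22710838 to 22921500). Its counts were 390, 394 and 401 in controls and 242, 264 and 284 with GCNT1 overexpression, without overlap. From 32.2 ± 1.54 CPM in controls it fell to 20.1 ± 0.847 CPM (SD, n = 3), a log2 fold change of -0.68 (SE 0.07, edgeR adjusted p = 5.42e-06). When the fold change threshold was made part of the test itself (edgeR's glmTreat), EPHB2 was no longer called (adjusted p = 0.230), whereas EPHA4, EPHB3 and EPHB6 were.

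EPHB4, the receptor of ephrin-B2 in vein formation and the second most abundant member, had counts of 1978, 2066 and 2009 in controls and of 1850, 1933 and 2056 in GCNT1 OE libraries (chromosome 7, 100802565 to 100827523). Scaled levels were 157, 166 and 170 CPM in controls and 160, 141 and 146 CPM with overexpression, so the groups overlapped. The log2 fold change was -0.14 (SE 0.06, edgeR adjusted p = 0.0458). The adjusted p was 0.0664 with DESeq2, 0.109 with the replicate number as a block in edgeR and 0.196 with library size in place of TMM, and it was above the threshold without control replicate 2 (0.129), control replicate 3 (0.127), GCNT1 OE replicate 2 (0.193) or GCNT1 OE replicate 3 (0.147).

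EPHB3 and EPHB2 were also compared with EPHB4 within each library, a ratio that does not depend on the scaling. These pairs were chosen after their values were seen. The ratio of EPHB3 to EPHB4 counts was 0.381, 0.384 and 0.426 in controls and 0.0903, 0.0983 and 0.0944 in GCNT1 OE libraries. That of EPHB2 to EPHB4 was 0.197, 0.191 and 0.200 in controls and 0.131, 0.137 and 0.138 with overexpression. The ratio of EPHA2 to EPHB4 went the other way, from 3.13, 3.14 and 3.12 to 3.92, 4.30 and 4.05. In all 3 ratios the groups did not overlap, and the two-sided exact permutation test gave p = 0.10, the smallest value that 3 libraries against 3 allow.

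**Figure D2:**
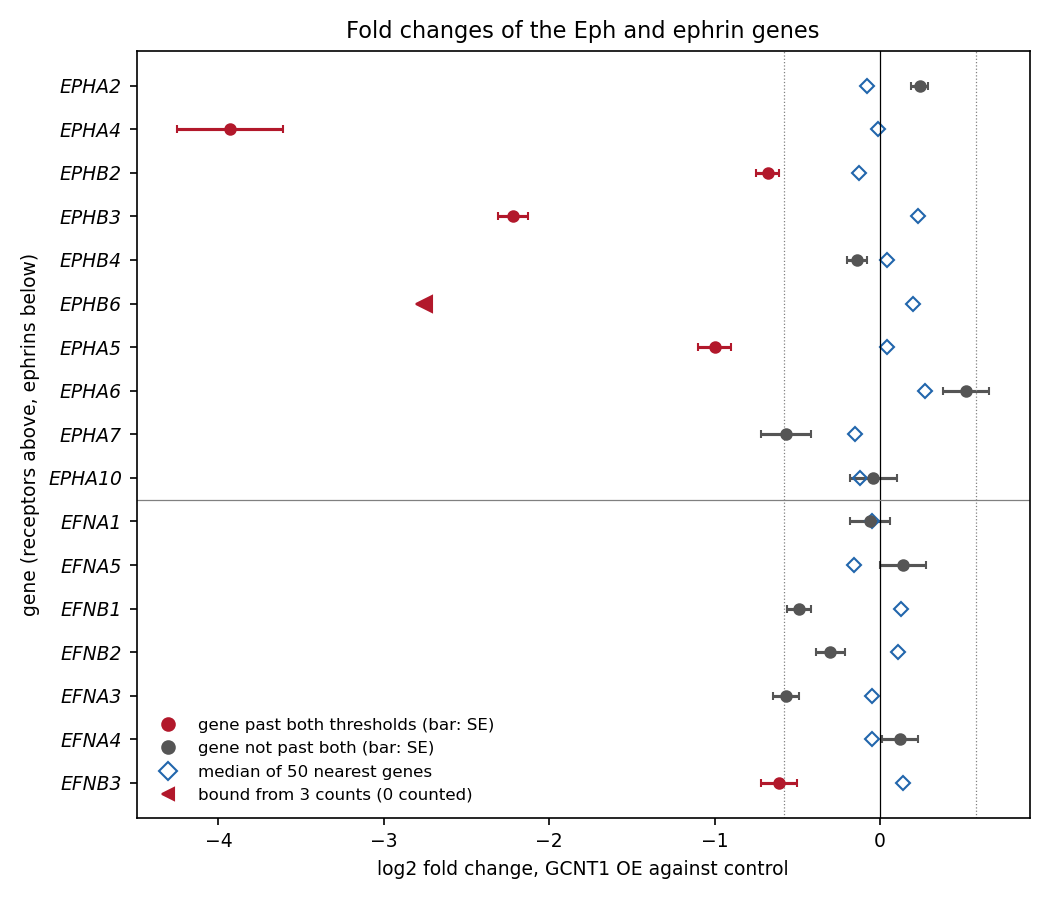
Log2 fold change (GCNT1 OE against control) of each measured Eph receptor and ephrin with its standard error, in red where both thresholds are passed, with dotted lines at the fold change threshold of 0.58. The triangle for EPHB6 is the bound set by 3 counts, and open diamonds show the median log2 fold change of the 50 nearest analysed genes, which stays between -0.16 and 0.27 for all genes drawn.

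Each member was also set beside its chromosomal neighbourhood. The median log2 fold change of the 50 nearest analysed genes was -0.01 around EPHA4, -0.13 around EPHB2, 0.23 around EPHB3 and 0.20 around EPHB6. Relative to these medians the log2 fold change was -3.92 for EPHA4, -0.55 for EPHB2 and -2.46 for EPHB3, so that EPHB2 alone of these 3 came under the fold change threshold. EPHA2 rose where the local median was -0.08. On the opposite strand, EPHA2, EPHA4, EPHB2, EPHB4 and EFNB2 each overlap another annotated gene, among them EPHA2-AS1 for EPHA2 and SLC12A9 for EPHB4. The libraries were stranded, but whether the counting used strand is not given in the sources used here, so reads of such pairs may not have been told apart.

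The promoters of 5 receptors are shown because these receptors span the range of responses, from EPHA4 and EPHB6, which fell to or near the floor, through EPHB3 to EPHB4 and EPHA2. Each line gives the 250 bases before the RefSeq start site on the sense strand (GRCh38.p14), 5′ to 3′, and capitals mark each CG dinucleotide. RefSeq windows were matched for all 10 members, with the outermost taken where a gene had 2.
EPHA4, chr2:221574203-221574452, minus strand: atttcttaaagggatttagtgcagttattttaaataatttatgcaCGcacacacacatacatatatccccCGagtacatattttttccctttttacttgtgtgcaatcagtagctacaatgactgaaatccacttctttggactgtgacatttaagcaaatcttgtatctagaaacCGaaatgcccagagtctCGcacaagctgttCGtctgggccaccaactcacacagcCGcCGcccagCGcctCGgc
EPHB6, chr7:142862506-142862755, plus strand: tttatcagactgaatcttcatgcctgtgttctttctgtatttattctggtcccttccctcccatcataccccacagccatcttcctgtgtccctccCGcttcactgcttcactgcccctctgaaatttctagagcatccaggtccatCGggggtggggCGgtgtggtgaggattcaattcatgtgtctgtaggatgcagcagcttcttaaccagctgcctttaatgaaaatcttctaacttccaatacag
EPHB3, chr3:184561535-184561784, plus strand: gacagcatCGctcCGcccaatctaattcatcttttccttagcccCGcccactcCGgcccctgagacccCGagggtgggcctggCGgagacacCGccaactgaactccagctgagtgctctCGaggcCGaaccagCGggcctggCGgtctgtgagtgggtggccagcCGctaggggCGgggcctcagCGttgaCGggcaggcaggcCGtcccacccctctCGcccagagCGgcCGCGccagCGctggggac
EPHB4, chr7:100827524-100827773, minus strand: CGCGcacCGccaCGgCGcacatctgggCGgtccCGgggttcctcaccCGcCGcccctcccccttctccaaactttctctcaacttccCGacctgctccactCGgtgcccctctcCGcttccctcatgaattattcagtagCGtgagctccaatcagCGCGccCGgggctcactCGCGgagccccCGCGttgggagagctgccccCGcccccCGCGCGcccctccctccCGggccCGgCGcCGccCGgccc
EPHA2, chr1:16156070-16156319, minus strand: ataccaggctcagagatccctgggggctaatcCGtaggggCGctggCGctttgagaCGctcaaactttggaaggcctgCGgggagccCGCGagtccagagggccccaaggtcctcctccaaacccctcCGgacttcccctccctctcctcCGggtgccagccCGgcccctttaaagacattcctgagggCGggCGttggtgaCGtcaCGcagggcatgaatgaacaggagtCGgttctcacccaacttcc

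The windows of EPHB6 and EPHA4, the receptors at or near the floor with overexpression, held the fewest CG dinucleotides of the 10 members, 3 and 9 respectively. The other members held between 15 (EPHA2 and EFNB1) and 42 (EPHB2), with 21 for EPHB3 and 29 for EPHB4. EPHB2 and EPHB3 were also called lower. EPHA4 and EPHB2 had 2 windows each, of which only the outermost was counted. Among all 35116 windows of the same length the median was 11, and 22.9% of them held fewer than EPHB6 and 45.9% fewer than EPHA4. The EPHB6 window lies inside the span of the gene, downstream of its outermost annotated start, so an upstream start is not covered by it. CACCTG, the E-box recognised by SNAI and ZEB repressors, was searched on both strands, where the other strand reads CAGGTG, and occurred once in EPHB2 and once in EFNB2 and in 17.5% of all windows. CTTTGAT, a TCF/LEF motif whose other strand reads ATCAAAG, was in 0 of the 10 windows and in 2.26% of all. The GC box GGGCGG, with CCGCCC on the other strand, occurred between 1 and 5 times in each of the 10 windows and in 42.6% of all. A match is a description of the letters and not of a bound site, and the methylation of these windows was not measured.

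None of the 4 ligands was called, and 2 of them were lower on the adjusted p alone (also 2 at an unadjusted p under 0.05, and 0 called by limma-voom or DESeq2). EFNB1, the X-linked transmembrane ligand of EphB receptors, was the most abundant of the 4 and had the largest difference (chromosome X, 68829021 to 68842160). The counts were 812, 827 and 883 in control libraries and 569, 655 and 705 with GCNT1 overexpression. The level went from 68.5 ± 5.41 to 48.9 ± 1.16 CPM (SD, n = 3) without overlap, a log2 fold change of -0.49 (SE 0.07, edgeR adjusted p = 3.70e-05), against a local median of 0.13.

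EFNB2, the partner of EPHB4, had 13.6, 15.3 and 14.0 CPM in controls and 11.1, 12.2 and 11.3 CPM with GCNT1 overexpression (chromosome 13, 106489745 to 106535662). The groups did not overlap, and the log2 fold change was -0.30 (SE 0.09, edgeR adjusted p = 0.0145). With DESeq2 the adjusted p was 0.0656, and without control replicate 2 or GCNT1 OE replicate 3 edgeR's was 0.0715 and 0.0555. The ratio of EFNB1 to EFNB2 counts was 4.82 ± 0.503 in controls and 4.25 ± 0.303 (SD, n = 3) with overexpression, and the groups overlapped (two-sided exact permutation p = 0.30).

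The ephrin-A members did not pass the adjusted p. EFNA1, the ligand most closely tied to EPHA2, had counts of 138, 134 and 171 in controls and of 144, 147 and 165 with overexpression (chromosome 1, 155127876 to 155134899). Its log2 fold change was -0.06 (SE 0.12, edgeR adjusted p = 0.724), and the sign changed with library size in place of TMM (0.00 after rounding). EFNA5, which can also bind EPHB2, had counts of 136, 108 and 120 in controls and of 132, 122 and 176 with overexpression (chromosome 5, 107376894 to 107670937). It had a log2 fold change of 0.14 (SE 0.14, edgeR adjusted p = 0.384). In both genes the groups overlapped.

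Of the 12 other Eph receptor and ephrin genes, 7 were measured. EPHA5, a receptor best known from neurons, fell from 47.6 ± 5.39 to 23.7 ± 2.67 CPM (SD, n = 3; SE of the log2 fold change 0.10, edgeR adjusted p = 1.78e-06), or by 1.04 on the log2 scale relative to the median of its 50 nearest genes. However, the antisense gene EPHA5-AS1 overlaps EPHA5, and the study's own list of changed genes holds EPHA5-AS1 as lower too. EFNB3, the third ephrin-B, fell from 13.1 ± 0.750 to 8.54 ± 0.966 CPM (log2 fold change -0.61, SE 0.11, edgeR adjusted p = 0.000358), a call that was lost with library size in place of TMM (-0.56), without control replicate 3 (-0.57) and without GCNT1 OE replicate 3 (-0.54). Both were called lower and 0 of the 7 were called higher, so that over the 17 measured genes of the 2 families 6 were called, all lower with TMM scaling, beside the 19.3% of all genes called and the 11.1% called lower. EPHA7 (-0.57) and EFNA3 (-0.57) passed the adjusted p and lay just under the fold change threshold, which EPHA7 passed without control replicate 3 (-0.66), GCNT1 OE replicate 2 (-0.60) or GCNT1 OE replicate 3 (-0.64) and EFNA3 without control replicate 1 (-0.59) or GCNT1 OE replicate 1 (-0.60). EPHA6 had a log2 fold change of 0.52 (edgeR adjusted p = 0.00637) and was past both thresholds with library size in place of TMM (0.58) and without control replicate 2 (0.65), and its 50 nearest genes had a median of 0.27. EPHA10 (-0.04) and EFNA4 (0.12) did not pass (edgeR adjusted p = 0.831 and 0.379). EPHA1, EPHA3, EPHA8, EPHB1 and EFNA2 had no row in the counts used here.

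To compare levels between genes, scaled counts were divided by the length of all annotated exons (CPM per kb). In controls EPHA2 stood at 124 ± 4.73, EPHB4 at 25.5 ± 1.01, EPHB3 at 14.4 ± 1.41, EPHB2 at 2.57 ± 0.123, EPHA4 at 0.530 ± 0.0766 and EPHB6 at 0.292 ± 0.0807 CPM per kb (SD, n = 3). With GCNT1 overexpression EPHA2 stood at 147 ± 4.38, EPHB4 at 23.1 ± 1.54, EPHB3 at 3.09 ± 0.0820 and EPHB2 at 1.60 ± 0.0677 CPM per kb (SD, n = 3). On this length the order of these 4 receptors was the same in both groups, with neighbours further apart than their spread. Per kb of coding length, a comparison added after the data were seen, EPHB3 stood above EPHB2 in controls (21.8 ± 2.14 and 10.9 ± 0.520 CPM per kb) and below it with overexpression (4.68 ± 0.124 and 6.79 ± 0.286 CPM per kb; SD, n = 3), so the order of this pair depended on the length. Among the 4 ligand members EFNB1 led in controls with 20.8 ± 1.64, followed by EFNA1 with 5.57 ± 0.961, EFNB2 with 2.85 ± 0.175 and EFNA5 with 1.72 ± 0.190 CPM per kb (SD, n = 3). With overexpression and union exon length this order was kept, at 14.8 ± 0.351, 5.36 ± 0.403, 2.31 ± 0.119 and 1.90 ± 0.322 CPM per kb, where EFNB2 and EFNA5 did not differ beyond their spread. Per kb of coding length EFNA5 and EFNB2 were level in controls, at 14.4 ± 1.60 and 14.3 ± 0.879 CPM per kb, and stood at 16.0 ± 2.70 and 11.6 ± 0.594 CPM per kb with overexpression (SD, n = 3).

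The summed receptor transcripts overlapped between the groups, while EPHA2 held a larger share of them with overexpression. Shares of 1 sum move together, so a share can differ for a gene whose own level overlaps, as for EPHB4. The 10 measured receptors summed to 167, 175 and 179 CPM per kb in controls and 185, 176 and 174 with GCNT1 overexpression, and the ranges overlapped. EPHA2 made up 71.5% ± 0.255 of this sum in controls and 82.3% ± 0.483 with overexpression (SD, n = 3). Within the 4 EphB receptors, EPHB3 went from 33.6% ± 1.31 to 11.1% ± 0.407 and EPHB4 from 59.7% ± 1.40 to 83.1% ± 0.506, while EPHB2 held 6.01% ± 0.113 and 5.78% ± 0.136. EFNB1 made up 34.6% ± 0.594 of the sum of the 7 measured ephrins in controls and 30.1% ± 0.858 with overexpression (SD, n = 3). The sum of the 6 EphA receptors, most of it EPHA2, went from 131 ± 4.14 to 151 ± 4.09 CPM per kb (SD, n = 3), without overlap. The EphB sum went from 42.8 ± 2.57 to 27.8 ± 1.68 CPM per kb, and that of the 3 ephrin-B genes from 27.7 ± 1.84 to 19.8 ± 0.0881 (SD, n = 3), both without overlap. The 4 ephrin-A genes summed to 32.3 ± 3.68 and 29.5 ± 2.15 CPM per kb, and these ranges overlapped. All 7 ephrins together went from 60.0 ± 5.47 to 49.2 ± 2.06 CPM per kb (SD, n = 3), without overlap. No test was run on these sums and shares, and both depend on the length used for each gene.

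**Figure D3:**
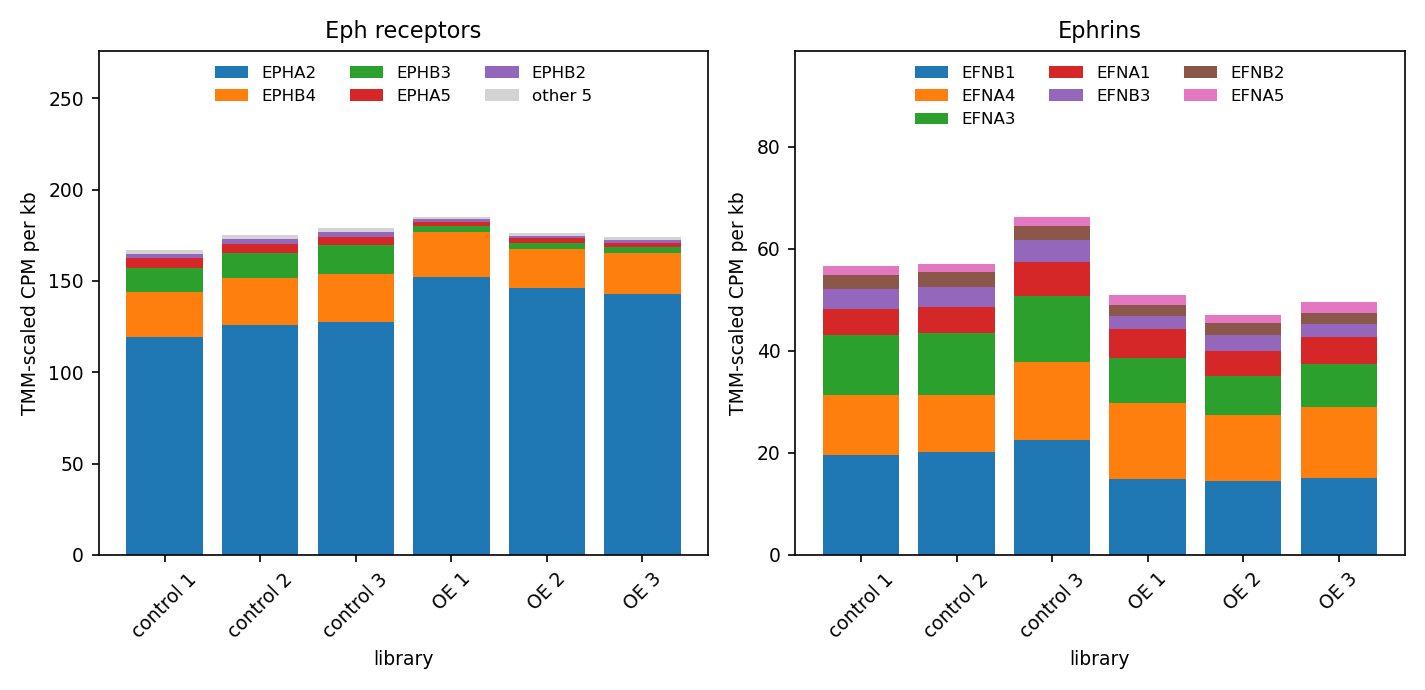
Stacked TMM-scaled CPM per kb of union exon length for the 10 measured Eph receptors (left) and the 7 measured ephrins (right) in each library, with the 5 least abundant receptors in grey. EPHA2 fills 71.5% of the receptor bars in controls and 82.3% with GCNT1 overexpression on average, and the EPHB3 segment shrinks, while the total height of the receptor bars overlaps between the groups.

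The genes that carry the Eph signal inside the cell were looked at as a list of 57 partners, of which 56 were measured. Of these, 10 were called, 4 higher and 6 lower, against the 19.3% of all genes given above, and their median log2 fold change was -0.12. With library size in place of TMM 8 were called, 4 higher and 4 lower. By role, 9 of 34 effectors and adaptors of forward signalling, 1 of 14 genes of receptor shedding, dephosphorylation and turnover, and 0 of 8 genes of reverse signalling and PDZ binding were called. For the last group edgeR gave 5 genes at an unadjusted p under 0.05, and limma-voom and DESeq2 also called 0.

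The called forward effectors included the guanine nucleotide exchange factors NGEF and VAV3, which were lower, and ARHGEF16 and VAV2, which were higher. NGEF (ephexin-1), which acts downstream of EPHA4, fell from 156 ± 5.36 to 53.4 ± 2.29 CPM (SD, n = 3), a log2 fold change of -1.55 (SE 0.06, edgeR adjusted p = 1.37e-10), where its 50 nearest genes had a median of -0.65. ARHGEF16 (ephexin-4), which binds EPHA2, had counts of 6, 6 and 7 in controls and of 31, 33 and 28 with overexpression, a log2 fold change of 2.16 (SE 0.28, edgeR adjusted p = 2.26e-05) against a local median of -0.34. Only its GCNT1 OE libraries reached the 1.01 CPM given above, so with controls this low it could be found only as higher. VAV3 fell from counts of 31, 50 and 39 to 2, 5 and 2 (log2 fold change -3.78, SE 0.37, edgeR adjusted p = 1.77e-06), and since 2 of the 3 GCNT1 OE libraries were under the floor of 3 counts the size of this fall is imprecise. VAV3 reached 1.01 CPM only in controls. Its relative VAV2 rose from 47.9 ± 2.48 to 76.3 ± 5.31 CPM (SD, n = 3; log2 fold change 0.67), where its local median was 0.54, a difference of 0.13 between the gene and its neighbours. The other measured exchange factors of the list, named outside the rule, were TIAM1 (log2 fold change 0.14), KALRN (-0.41) and ITSN1 (0.11), which did not pass (edgeR adjusted p = 0.111, 0.0709 and 0.226).

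Of the called adaptors, NCK2 and SHC1 were lower and GRB7 was higher, and the called kinases ROCK2 and LYN were both lower. NCK2 (Grb4), which was listed with the forward effectors but is also known as an adaptor of ephrin-B reverse signalling and so is not among the 8 genes above, fell from 58.1 ± 3.64 to 27.7 ± 2.26 CPM (SD, n = 3; log2 fold change -1.07, SE 0.08, edgeR adjusted p = 8.87e-08). ROCK2, a kinase that acts on the actomyosin cytoskeleton, fell by 1.11 on the log2 scale, where the local median was -0.50. SHC1, an adaptor of many receptor kinases, was lower with a log2 fold change of -0.61, a call that was lost with library size in place of TMM (-0.55). GRB7, an adaptor that binds receptor kinases, rose from 2.31 ± 0.283 to 5.35 ± 0.592 CPM (SD, n = 3; log2 fold change 1.22, SE 0.17, edgeR adjusted p = 5.16e-05). PTPRO, a phosphatase that acts on Eph receptors, rose with a log2 fold change of 0.93 (SE 0.20, edgeR adjusted p = 0.00161). In the glmTreat test PTPRO, VAV2, SHC1 and LYN were no longer called (adjusted p = 0.126, 0.228, 0.579 and 0.859). The remaining called partner was the Src family kinase LYN (-0.63), which lay outside the naming rule and was added after its value was seen. The call of LYN was lost with library size in place of TMM (-0.57), without GCNT1 OE replicate 1 (-0.56) and without GCNT1 OE replicate 2 (-0.57).

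**Figure D4:**
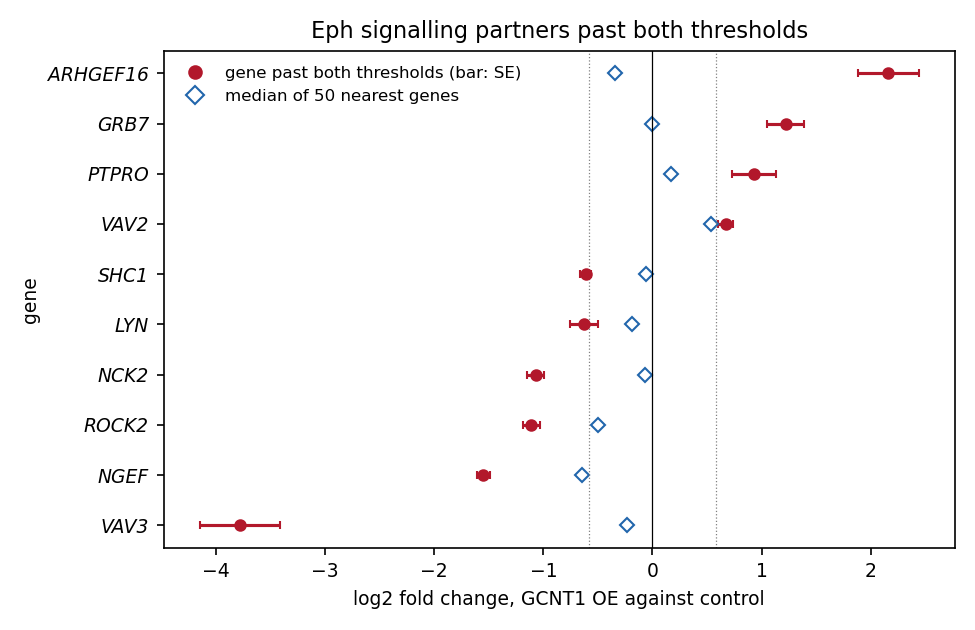
Log2 fold change (GCNT1 OE against control) with standard error for the 10 Eph signalling partners past both thresholds, with open diamonds for the median of the 50 nearest analysed genes and dotted lines at the fold change threshold of 0.58. The point of VAV2 (0.67) lies beside its local median of 0.54, whereas ARHGEF16 (2.16) and VAV3 (-3.78) lie far from theirs.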

How the data were processed

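Stranded mRNA libraries were read from a single end, and the authors used Cutadapt for trimming, HISAT2 for alignment (hg38) and featureCounts for gene counts, in Galaxy 22.01. They deposited raw read counts per gene and library, unpooled. The annotation, the low-count filter and the strand setting are not given in the sources used here, and the lowest value of any gene in its third-highest library was 1.01 CPM. All 6 columns were used, grouped by the labels.

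Counts were fitted in R 4.3.3 with edgeR 4.0.16 (filterByExpr, which kept all 12703 genes, TMM, quasi-likelihood test of the 2 groups, Benjamini-Hochberg over all genes). The fits were also run on simulated data with few changed genes, as many higher as lower. That setting differs from these data, where many genes differ, so its outcome is not used as support. Alternatives were limma-voom (limma 3.58.1, the study's tool), DESeq2 1.42.0, other scalings and filters, glmTreat, a replicate block and each library left out. Positions came from RefSeq (12661 genes matched), exon lengths and overlaps from GENCODE 44. The members and lists were chosen with earlier results of these data known. Named genes were all measured Eph receptors and ephrins, up to 5 called partners per direction by p, GCNT1 and the markers. Libraries of a group differed by more than sampling noise (chi-square per degree of freedom 1.65 to 5.61).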

Additional observations from a re-analysis of the deposited data

How the results depend on the processing

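The 4 called members were lower under limma-voom, DESeq2, other scaling factors, library size alone and with each library left out, with 4 members called each time. The fit without a filter repeats the main one, since filterByExpr kept all 12703 genes, and adds no support. A minimum of 10 counts in every library called 2, because it removes EPHA4 and EPHB6 through their own fall. The glmTreat test called 3 members, 1 other family gene, 6 partners and 1392 of all genes, against 2457. Under it GCNT1, EFNB3 and KRT19 also lost their calls (glmTreat adjusted p = 0.396, 0.935 and 0.110). On the adjusted p alone 6 to 8 members passed over the alternatives other than glmTreat, which were applied to this count after the data were seen. With library size alone the log2 fold change was 0.00 (positive before rounding) for EFNA1 and 0.02 for EPHA10, and with 1 library left out in turn it ran from -0.13 to 0.09 for EFNA1 from -0.09 to 0.03 for EPHA10 and from -0.06 to 0.22 for EPCAM. With canonical transcript length and coding length, EPHA2 made up 66.7% and 61.3% of receptor transcripts in controls and 77.7% and 73.5% with GCNT1 overexpression. EPHB3 made up 27.3% and 24.6% of EphB transcripts in controls and 8.43% and 7.59% with overexpression. EFNB1 made up 32.9% and 35.3% of ephrin transcripts in controls and 28.5% and 30.7% with overexpression. Same-numbered libraries did not deviate together (pair correlations -0.447, 0.0108 and -0.177), and with the replicate block 4 members and 2423 genes were called. Depth limits EPHB6, EPHA4 and VAV3, whose GCNT1 OE counts were between 0 and 5.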

Other observations

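Ephrin-A genes lie side by side on chromosome 1 of hg38, EFNA4 (155063740 to 155069553), EFNA3 (155078837 to 155087538) and EFNA1 (155127876 to 155134899). EFNA3 had 23.9 ± 1.13 CPM in controls and 16.2 ± 1.00 CPM with GCNT1 overexpression (SD, n = 3; log2 fold change -0.57, SE 0.08, edgeR adjusted p = 6.61e-05), while EFNA4 on one side had a log2 fold change of 0.12 and EFNA1 on the other of -0.06. The ratio of EFNA3 to EFNA4 counts was 1.55, 1.68 and 1.31 in controls and 0.908, 0.928 and 0.951 with overexpression, without overlap (two-sided exact permutation p = 0.10, the smallest possible with 3 libraries against 3). That of EFNA3 to EFNA1 was 2.01 ± 0.245 and 1.39 ± 0.0226 (SD, n = 3), also without overlap. The annotated gene EFNA4-EFNA3 overlaps both EFNA4 and EFNA3 on their strand, so their counts are uncertain, and these pairs were chosen after their values were seen.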
